A study of Mus musculus with 12 samples.

Results

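miR-122 is described here through the 2 mature strands that are cut from its hairpin, mmu-miR-122-5p and mmu-miR-122-3p. They were taken by name and are 2 of 386 mature miRNA rows measured by small RNA sequencing of mouse liver. All 12 livers came from wild-type C57BL/6 males killed fasted at postnatal day 84, given elsewhere in the labels as 12 weeks of age. The groups differed in the diet of the mother and of the son, with 3 libraries each: in CC both ate the control diet and in OO both ate the obesogenic diet, while in CO only the son and in OC only the mother ate the obesogenic diet. The control diet was the chow RM1, with 7% simple carbohydrates and 3% lipids by weight. The obesogenic diet had 10% simple carbohydrates and 20% lipids, and came with sweetened condensed milk, itself 8% lipids, 8% protein and 55% simple carbohydrates, fortified with the AIN93G mineral and vitamin mix. The 35 dams stayed on their diet until weaning, litter size was evened to 6 pups at postnatal day 3, and the sons were placed on their own diet at day 21.

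A miRNA hairpin is cut by Dicer into a short duplex, and one strand of it, usually the same one, is kept in an Argonaute protein and pairs through its seed with target mRNAs. In miR-122 the kept strand is the 5p arm, and the 3p arm is the passenger strand. miR-122 is the classical hepatocyte miRNA: it is made mainly in hepatocytes, it represses transcripts such as Aldoa and Slc7a1, its loss in mice lowers blood cholesterol and leads to fatty liver, and hepatitis C virus needs it to replicate. It is therefore a natural miRNA to look at in livers of mice fed an obesogenic diet.

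The other miRNAs on which the results below turn are shown with the seed, bases 2 to 8, in capitals. Sequences and positions are those of RefSeq on GRCm38.p6, and the gene context is that of GENCODE vM21 on the same assembly. The first 3 are other hepatocyte-enriched miRNAs: miR-192-5p and miR-148a-3p have the most reads in that list, and miR-215-5p has the same seed as miR-192-5p. The last 4 are among the 5 miRNAs whose levels over all 12 libraries were most like those of 1 of the miR-122 arms. For miR-100-5p this rested on 1 library, CO replicate 3, without which it was 26th. Among these 4, miR-99b-5p and miR-100-5p have 1 seed.
miR-192-5p: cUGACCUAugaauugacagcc
miR-215-5p: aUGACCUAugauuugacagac
miR-148a-3p: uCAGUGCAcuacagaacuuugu
miR-99b-5p: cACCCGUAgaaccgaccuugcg
let-7e-5p: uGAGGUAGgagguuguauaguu
miR-125a-5p: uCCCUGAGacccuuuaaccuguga
miR-100-5p: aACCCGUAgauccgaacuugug
miR-192-5p lies at chr19:6264857-6264877 (+ strand) and miR-148a-3p at chr6:51269829-51269850 (- strand), both outside any longer annotated gene. miR-215-5p, at chr1:185313610-185313630 (+ strand), lies in an exon of the antisense RNA 2010103J01Rik and opposite an intron of Iars2. miR-99b-5p (chr17:17830194-17830215), let-7e-5p (chr17:17830366-17830387) and miR-125a-5p (chr17:17830817-17830840) follow each other on the + strand of chromosome 17 within 647 bases, inside Spaca6: the first and the second in an intron, miR-125a-5p in an annotated exon. miR-100-5p, at chr9:41531437-41531458 (+ strand), lies in introns of 3110039I08Rik and Gm49317 and opposite an exon of Gm48742.

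The values are CPM, reads scaled to a fixed total per library, and the depth behind them, taking their smallest step as 1 read, was 5.45 to 22.2 M reads per library (median 13.2 M). Depth went with maternal diet: libraries of control mothers had 10.6 ± 3.78 M reads and those of obesogenic mothers 16.7 ± 4.80 M (SD, n = 6 each). CO replicate 3 was the shallowest library and stood apart from the rest. Its median miRNA lay 0.20 below that miRNA's mean on the log2 scale, while the other libraries reached at most 0.13 on either side. It had the highest summed CPM of the 14 other hepatocyte-enriched miRNAs and the lowest sums of the endothelial and leukocyte lists. Most of that highest sum was miR-192-5p, which stood at 295048 CPM in this library, its highest value. The mesenchymal sum was not low: at 45385 CPM it was exceeded only by CC replicate 1, with 47311 CPM. The results that CO replicate 3 moves most are given with and without it. The labels name no litter or mother for any son, so the p-values measure only the spread between these libraries. Title prefixes coincide with maternal diet, and the letter that ends the title differs between most control-fed and obesogenic-fed sons, so a batch behind the prefix cannot be told apart from maternal diet. OC replicate 2 and OO replicate 3 share the stem of their titles, and what the stem stands for is not given. In bulk liver RNA, fewer hepatocytes and less miRNA per hepatocyte cannot be told apart.

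miR-122-5p was measured at 25255, 25112 and 23582 CPM in CC replicates 1 to 3. In CO it stood at 20930, 22481 and 28851 CPM. The last of these, CO replicate 3, was the highest value of all libraries, and the other CO libraries lay below every CC library. In OC the level was 25383, 22105 and 24475 CPM. In OO it was 22499, 20303 and 19991 CPM, so that the 2 lowest values of all came from sons on the obesogenic diet of obesogenic mothers. Each OO library lay below each CC library, while OO overlapped both CO and OC. Of all 386 miRNAs, 8.03% had every OO library below every CC library.

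The group means of miR-122-5p fell in the order CC, CO, OC, OO. CC had 24650 ± 927 CPM, CO 24087 ± 4198 CPM, OC 23988 ± 1692 CPM and OO 20931 ± 1367 CPM (SD over 3 libraries). CC, CO and OC, the neighbours in that order, lay within each other's SD, and OO lay below OC by more than the SD of either. The SD of CO was the widest through replicate 3, and without that library CO stood at 21706 ± 1097 CPM (n = 2) and came next to OO. If 1 step of the CPM values stands for 1 read, the reads behind these values numbered 157158 to 563221 per library, which gives a counting error of 0.13% to 0.25%, far under the spread between livers.

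miR-122-3p, the passenger strand, was measured at 1827, 2089 and 1921 CPM in CC. It stood at 1780, 1944 and 1968 CPM in CO, at 1996, 1939 and 2172 CPM in OC, and at 1931, 2005 and 1861 CPM in OO. All 4 groups overlapped, and CO replicate 3, so high in the 5p arm, was unremarkable here. Means were 2036 ± 121.6 CPM in OC, 1946 ± 133 CPM in CC, 1932 ± 71.9 CPM in OO and 1897 ± 102 CPM in CO (SD, n = 3 each), each within 1 SD of its neighbour. The highest library exceeded the lowest by 1.22-fold, against 1.44-fold for the 5p arm.

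**Figure D1:**
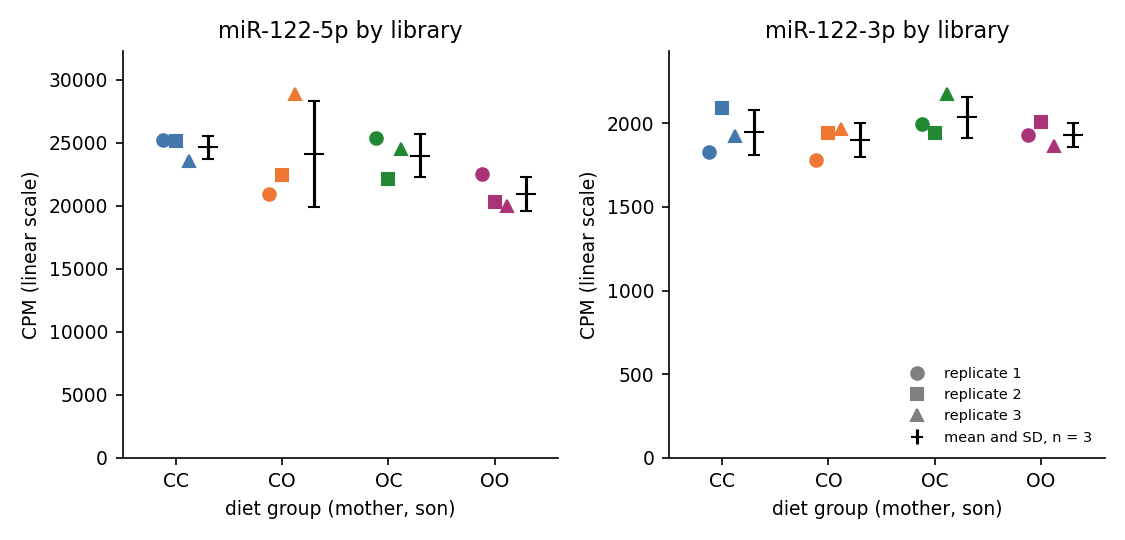
CPM of miR-122-5p (left) and miR-122-3p (right) in each library by diet group, on linear axes from 0. Symbols are libraries, and the bars beside them give the mean and SD of 3 libraries. The CO library at 28851 CPM stands alone in the 5p panel, and the 3 OO libraries lie below the 3 CC libraries there, whereas the groups overlap in the 3p panel.

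Against all rows, miR-122-3p was among the steadiest miRNAs. Its pooled within-group SD was 0.08 on the log2 scale, the 8th smallest of 386 rows, where the median row had 0.24. For miR-122-5p the SD was 0.14, the 53rd smallest, and without CO replicate 3 it was 0.08. Both values are descriptions of spread and are not adjusted for abundance. Among the 40 most abundant rows, with a median SD of 0.17, the 3p arm was the 3rd and the 5p arm the 16th steadiest.

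miR-122-5p was not the miRNA with the highest CPM in these livers. It ranked 9th to 12th in single libraries and 11th by its mean of 23414 ± 2556 CPM (SD over 12 libraries), and made up 1.98% to 2.86% of the summed CPM. Next above it were miR-26a-5p, higher in 11 of 12 libraries at a mean of 30773 CPM, and miR-27b-3p, higher in 8 of 12 at 25455 CPM. Next below came the endothelial miR-126-5p at 19642 CPM, which exceeded it in 2 libraries, and miR-92a-3p at 15267 CPM, which did so in 0 of 12. miR-122-3p ranked 34th to 39th, between miR-142-5p (2252 CPM) and miR-125a-5p (2172 CPM) above and let-7i-5p (1950 CPM) and miR-151-5p (1834 CPM) below. The order of let-7i-5p and miR-122-3p was not settled, since let-7i-5p was higher in 6 of 12 libraries. CPM of different miRNAs also carries how well each sequence ligates and amplifies, which the files do not give, so these ranks order reads and not molecules.

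In the fit of all 386 rows with limma on log2(CPM + 1), neither arm of miR-122 changed with diet at a Benjamini-Hochberg adjusted p under 0.05. The diet of the son, averaged over maternal diets, went with a log2 change of -0.12 ± 0.08 (SE) in miR-122-5p, with a 95% interval of -0.30 to 0.06 and an adjusted p of 0.55 from limma. Control-fed sons had 24319 ± 1273 CPM and obesogenic-fed sons 22509 ± 3284 CPM (SD, n = 6 each). For miR-122-3p the change was -0.05 ± 0.07 with an adjusted p of 0.75. In this contrast 0.777% of all rows passed. The change of the 5p arm was -0.07 when CO replicate 1 was left out. When CO replicate 3 was left out it was -0.19 ± 0.05, with an unadjusted limma p of 0.0056 and an adjusted p of 0.12, which was the smallest adjusted p of either arm under any of the settings tried.

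Maternal diet, averaged over the sons' diets, went with -0.12 ± 0.08 in miR-122-5p and 0.05 ± 0.07 in miR-122-3p (limma adjusted p 0.70 and 0.78), in a contrast in which 0.0% of rows passed. The interval was -0.29 to 0.06 for the 5p arm and -0.10 to 0.19 for the 3p arm. Changes beyond these bounds lie outside the 95% intervals. These bounds are not limits of detection, and none was worked out. The maternal change of the 5p arm was -0.05 when CO replicate 3 was left out, -0.21 with TMM factors, -0.19 with median-of-ratios factors and -0.01 with depth as a covariate, and it passed in none of these fits. The interaction of the diets was -0.15 ± 0.16 for the 5p arm and -0.04 ± 0.13 for the 3p arm (limma adjusted p 0.78 and 0.92), again with 0.0% of rows passing. When CO replicate 3 was left out the interaction was -0.01 for either arm, and when CO replicate 1 was left out it was -0.24 for the 5p arm and -0.08 for the 3p arm. The 4 groups compared at once did not differ by limma's F test, with an adjusted p of 0.58 for the 5p arm and 0.89 for the 3p arm, and 0.259% of rows passed it.

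Between single groups, the widest difference was that of OO from CC in miR-122-5p. The log2 change was -0.24 ± 0.11 (SE), the 95% interval -0.49 to 0.01, the unadjusted limma p 0.062 and the adjusted p 0.41, where 0.259% of rows passed. Against OC, the OO level of the 5p arm was lower by a log2 change of -0.20 ± 0.11 (limma adjusted p 0.81, 0.518% of rows passing). Against CO it was -0.19 ± 0.11 (adjusted p 0.40, 0.0% passing), a difference that shrank to -0.05 without CO replicate 3. CO differed from CC by -0.05 ± 0.11 (adjusted p 0.91, 0.777% passing), or by -0.18 without that library, with an adjusted p of 0.32, and by 0.05 without CO replicate 1. OC differed from CC by -0.04 ± 0.11 (adjusted p 0.9999, 0.0% passing). The comparisons of OO with CC, CO and OC share the OO libraries and are not independent of each other.

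In the passenger strand the same 5 comparisons spanned log2 changes of -0.07 (OO against OC) to 0.07 (OC against CC), with limma adjusted p of 0.92 to 0.9999. With CO replicate 3 left out, the 3p arm differed by -0.06 in CO against CC and by 0.05 in OO against CO. In the deposited CPM the median log2 change of all rows was 0.13 in OO against CO and also 0.13 in the interaction. The median miRNA of CO replicate 3 stood at -0.20 from its mean, and the part of that library in this was not tested. Relative to the median of each contrast, the OO against CO change was -0.33 for the 5p arm and -0.11 for the 3p arm, and the interaction was -0.28 and -0.17. Taken the same way, maternal diet gave -0.20 and -0.04, and OO against CC -0.29 and -0.06.

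**Figure D2:**
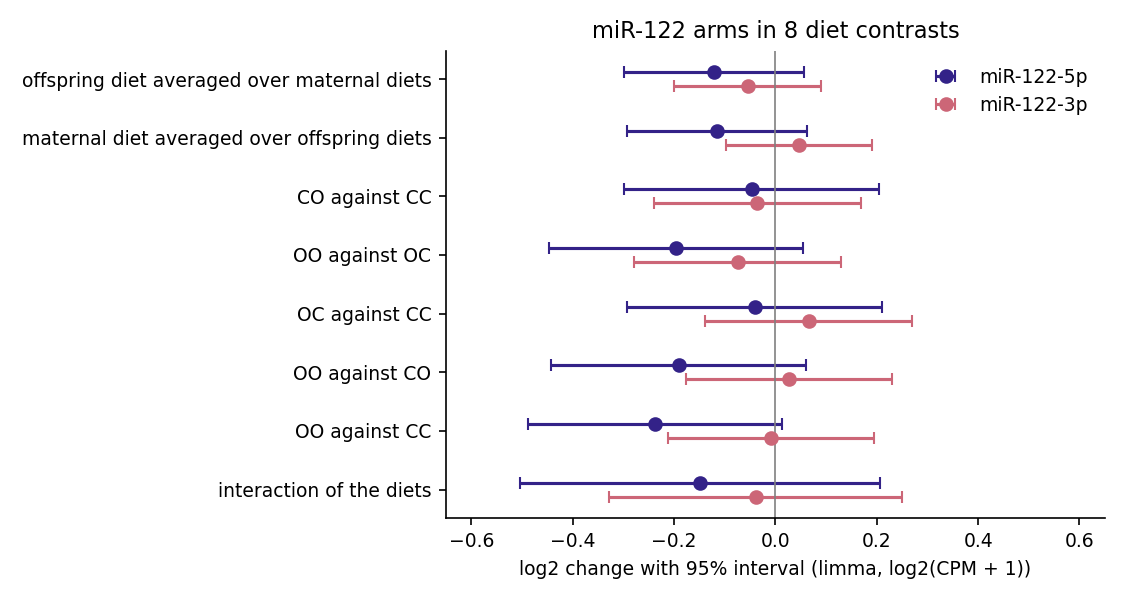
log2 change of miR-122-5p and miR-122-3p in 8 diet contrasts, as points with 95% intervals from the limma fit of log2(CPM + 1) over 12 libraries. All 16 intervals include 0, and the interval of the 5p arm for OO against CC comes nearest to leaving it (-0.49 to 0.01).

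The hairpin of both arms, Mir122, lies on chromosome 18 from 65248861 to 65248926 on the + strand in GENCODE vM21 (GRCm38, 66 bases), and the build used for the deposited table is not given in the sources used here. It falls in an exon of the long intergenic noncoding RNA AC157910.3 on the same strand, an exon that runs from 65245359 to 65252621. The nearest protein-coding genes are Nedd4l, which ends 31033 bases before it on the same strand, and Alpk2, which begins 16603 bases after it on the opposite strand. Both arms come from this 1 transcript, and their ratio within a library does not depend on how the library was scaled.

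The 5p arm exceeded the 3p arm by 13.8, 12.0 and 12.3-fold in CC and by 11.8, 11.6 and 14.7-fold in CO. In OC the ratio was 12.7, 11.4 and 11.3, and in OO it was 11.7, 10.1 and 10.7. As group means, CC had 12.7 ± 0.974, CO 12.7 ± 1.74, OC 11.8 ± 0.804 and OO 10.8 ± 0.768 (SD over 3 libraries). The passenger strand thus made up 6.38% to 8.99% of the CPM of both arms, with the least in CO replicate 3 and the most in OO replicate 2. All OO libraries lay below all CC libraries, as did 9.09% of the 99 hairpins that have both arms in the table, and an exact permutation test of 3 against 3 gave p = 0.1, the smallest it allows. The other group pairs overlapped.

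Sons of obesogenic mothers had a lower ratio of 5p to 3p arm than sons of control mothers, by -0.16 on the log2 scale or 0.894-fold, but the difference did not pass after adjustment. The exact permutation test, two-sided and 6 against 6, gave p = 0.056 and 0.11 adjusted over 4 such tests. Of the 6 libraries of obesogenic mothers, 4 lay below every library of control mothers. Libraries of obesogenic mothers were also deeper on average, and the part of depth in this difference was not tested. Permuting labels only within each diet of the son, a choice made after the data were seen, gave an exact permutation p of 0.04, or 0.08 adjusted. Leaving out OC replicate 1 gave -0.20 with an adjusted exact p of 0.035, and leaving out CO replicate 3 gave -0.12. The son's own diet went with -0.07 (exact permutation p = 0.46, adjusted 0.49). This was -0.13 when CO replicate 3 was left out, with an adjusted exact p of 0.12, and -0.03 when OO replicate 2 was.

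Among the 99 hairpins, 51 had the higher reads in the 5p arm and 48 in the 3p arm. The mean log2 ratio of miR-122 was 3.58, the 71st from the lowest. Next below it were let-7b (3.52) and miR-195a (3.25), and next above miR-98 (4.02) and miR-30e (4.11), each of them with the 5p arm as the higher one. Whichever arm was higher, the median hairpin had an 11.9-fold excess, which was the value of miR-122 itself. The ratio of miR-122 was steady, with a pooled within-group SD of 0.13 where the median hairpin had 0.26, and only 5 hairpins had a smaller one. For size alone, 37 hairpins had a wider maternal difference than miR-122 and 73 a wider difference by the son's diet, and 26 of the 99, miR-122 among them, had their lowest group mean in OO.

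**Figure D3:**
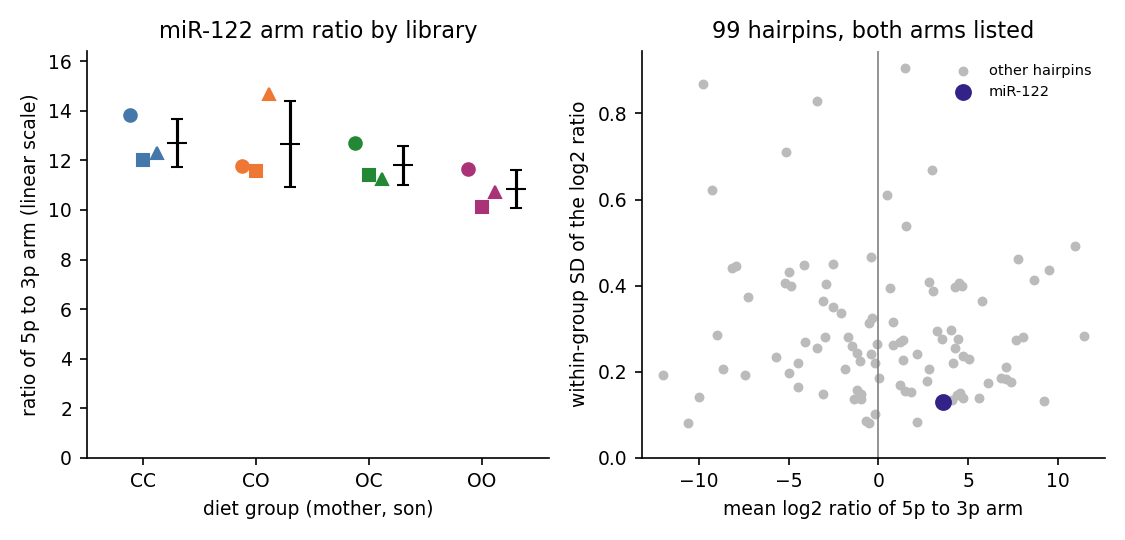
Left, ratio of miR-122-5p to miR-122-3p in each library by diet group, on a linear axis from 0, with the mean and SD of 3 libraries; OO lies lowest, with a mean of 10.8. Right, for 99 hairpins with both arms listed, the within-group SD of the log2 ratio of 5p to 3p arm against its mean; miR-122, at 3.58 and 0.13, lies near the lower edge.

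The other hepatocyte-enriched miRNAs gave a second yardstick that does not depend on scaling. This list of 14, all of them measured, holds miR-192, miR-194 and miR-215, made from linked genes in liver and gut, miR-148a, which acts on cholesterol uptake, miR-101, miR-802, miR-193a and miR-455. miR-192-5p had the highest mean CPM of all rows, at 246349 ± 17931 CPM, and miR-148a-3p the third highest, at 83864 ± 6200 CPM (SD, 12 libraries). miR-101b-3p (8931 CPM), miR-101a-3p (8424 CPM) and miR-194-5p (6754 CPM) followed, and the other 9 had means of 53.8 to 558 CPM. None of the 14 rose or fell by limma in any of the 8 contrasts, where 5 of 112 values had an unadjusted p under 0.05, against 288 of 3088 values (9.33%) for all rows. Their median log2 change was 0.01 with the son's diet, against -0.02 for all rows, and 0.08 with maternal diet, against 0.08. The smallest p was that of miR-455-3p in OO against CC, a log2 change of 0.50 ± 0.14 (limma adjusted p 0.23).

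Against the summed CPM of these 14, miR-122-5p was lower in obesogenic-fed sons by -0.21 on the log2 scale, or 0.863-fold, and this also missed the threshold after adjustment. The exact permutation test of 6 against 6 gave p = 0.028, or 0.11 adjusted over 4 tests, and 4 of the 6 obesogenic-fed sons lay below every control-fed son. By library, the log2 ratio was -3.78, -3.80 and -3.89 in CC and -4.15, -4.02 and -3.78 in CO. It was -3.68, -4.01 and -3.80 in OC and -4.00, -4.15 and -4.14 in OO. OO lay wholly below CC, as did 10.5% of the 372 rows outside the list when divided by the same sum, while the other pairs overlapped.

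The difference of that ratio by the son's diet depended on the libraries and on the list. Without CO replicate 3 it was -0.27 with an adjusted exact p of 0.035, and without miR-192-5p, which carries most of the sum, it was -0.14 with an adjusted exact p of 0.54. Within each maternal diet, a permutation chosen after the data were seen, the exact p was 0.035, or 0.08 adjusted. Maternal diet went with -0.06 (exact permutation p = 0.49), and leaving out CO replicate 3, CO replicate 1 or OC replicate 1 gave -0.04, -0.11 and -0.12 in that order. The summed list itself was 346019 to 349969 CPM in CC, 363958 to 395291 in CO, 326010 to 356719 in OC and 353332 to 360599 in OO. On its own, miR-192-5p had a log2 change of 0.12 ± 0.05 with the son's diet (limma adjusted p 0.33), or 0.08 with CO replicate 3 left out.

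Across livers, miR-122-5p and miR-192-5p showed how far 1 library can set a relation. Over all 12 libraries Pearson's r was 0.18 and Spearman's rho -0.38 (permutation p 0.58 and 0.22; adjusted over 5 relations 0.58 and 0.36). Without CO replicate 3, which held the highest value of both miRNAs, r was -0.78 and rho -0.80 (permutation p 0.0038 and 0.0046; adjusted 0.019 and 0.023). That omission was chosen after the data were seen. Without the 2 libraries farthest from the median of miR-192-5p, OC replicate 1 and CO replicate 3, r was -0.76 (permutation p 0.013, adjusted 0.066). It was 0.51 among sons of control mothers and -0.74 among sons of obesogenic mothers (exact permutation p 0.32 and 0.061, n = 6 each); the first of these includes CO replicate 3, and its rho was -0.09. CPM values share 1 total, of which miR-192-5p alone takes a large share, so the 2 rows are not free of each other. Libraries were permuted across the diet groups, so differences between groups enter these relations and their p-values. Taken as deviations from group means over all 12 libraries, r was 0.55 and rho 0.27, with no test made.

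The arms themselves were only loosely related, with r = 0.35 and rho = 0.32 (permutation p 0.26 and 0.31, adjusted 0.32 and 0.39). r was 0.20 without CO replicate 1 and OC replicate 3, the farthest from the median of the 3p arm, 0.49 among sons of control mothers and 0.60 among sons of obesogenic mothers. Depth went with miR-122-5p at r = -0.45 (rho = -0.20; permutation p 0.14 and 0.54, adjusted 0.24 and 0.54), which was -0.09 without CO replicate 3 alone and 0.15 without CC replicate 2 and CO replicate 3, so that it rests on CO replicate 3. By maternal diet r was -0.78 for control and 0.43 for obesogenic mothers. Depth and the arm ratio gave r = -0.52 (rho = -0.40; permutation p 0.080 and 0.20, adjusted 0.24 and 0.36), -0.20 without CO replicate 3 alone, -0.18 without the same pair, and -0.54 and 0.16 by maternal diet. The summed erythroid list gave r = -0.45 with miR-122-5p (rho = -0.46; permutation p 0.14 and 0.13, adjusted 0.24 and 0.36), -0.30 without OC replicate 2 and CO replicate 1, and -0.75 and -0.35 by maternal diet. Taken as deviations from group means, r was 0.43 between the arms and -0.77 for miR-122-5p with the erythroid list. For depth it was -0.56 with miR-122-5p and -0.44 with the arm ratio, and none of these was tested.

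**Figure D4:**
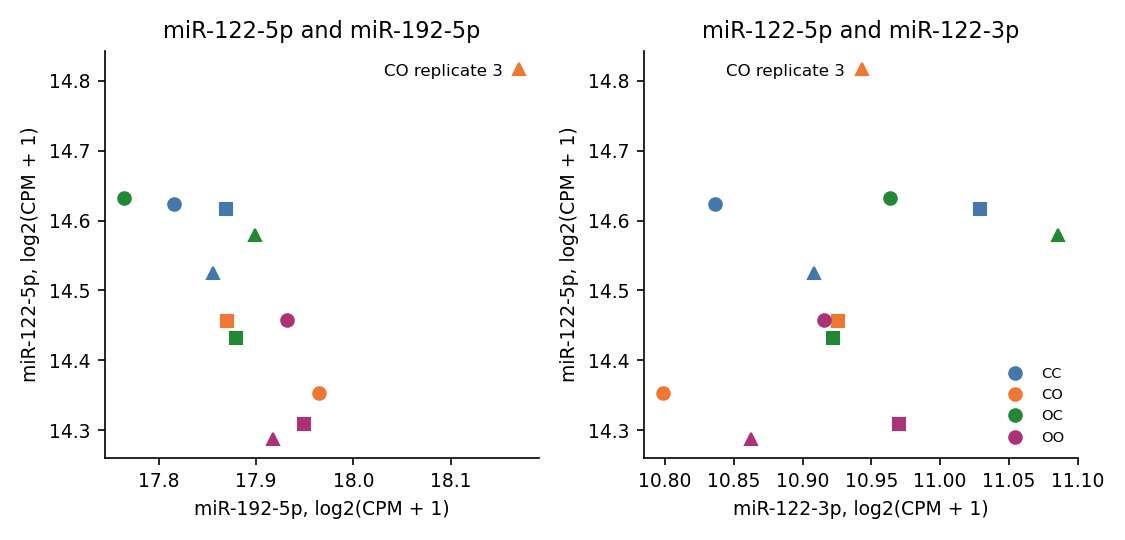
log2(CPM + 1) of miR-122-5p against miR-192-5p (left) and miR-122-3p (right), 1 point per library, coloured by diet group, with the symbol giving the replicate. CO replicate 3 is at the top right of the left panel, where the other 11 libraries run downwards (r = -0.78 without it, 0.18 with it).

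Among the lists of other cells, CO replicate 3 had the lowest endothelial and leukocyte sums. Its erythroid sum (1166 CPM) and its sum of biliary and other epithelium (481 CPM) lay within the range of the other libraries. The part of other cells in the results above was not tested. Of 4 names in the endothelial list, 2 had a row (both arms of miR-126), and their summed CPM was 24304 to 27100 in CC, 15584 to 22984 in CO, 23722 to 24653 in OC and 24420 to 28052 in OO, with CO replicate 3 the lowest of all. The 7 measured of 9 leukocyte names, among them miR-223-3p and miR-142-5p, summed to 2834 to 3522 CPM in CC, 2273 to 3033 in CO, 2961 to 4583 in OC and 3045 to 3386 in OO. The 3 measured of 7 erythroid names (miR-451a and both arms of miR-144) summed to 1143 to 1796 CPM in CC, 1166 to 3405 in CO, 1209 to 1987 in OC and 1273 to 1678 in OO. The library with the most of them had the least miR-122-5p of its group in CO (replicate 1), OC (replicate 2) and OO (replicate 3). In CC it was the reverse: replicate 1 had the most of both. The 7 measured of 10 mesenchymal names summed to 30730 to 47311 CPM and the 5 of 5 of biliary and other epithelium to 396 to 892 CPM over all libraries. Some names are alternatives for 1 miRNA. Names were matched whole, and 4 rows of the table name several miRNAs at once. A member found only in such a row is not counted here as measured, nor in these sums. No row of the table was at 0. Of the 24 measured members of these 5 lists, 0 passed limma in any contrast, and 24 of their 192 values over the 8 contrasts had an unadjusted p under 0.05, beside the 9.33% of all rows. The lists were unlike in this: 6 of 16 endothelial, 11 of 56 mesenchymal and 7 of 56 leukocyte values had such a p. For the erythroid list it was 0 of 24 and for biliary and other epithelium 0 of 40.

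Of 16 measured miRNAs (17 names) tied to lipid metabolism, the field in which miR-122 is best known, 1 passed. It was miR-182-5p, which is made with miR-96 and miR-183 under the sterol-regulated transcription factor SREBP2. With the son's obesogenic diet it fell by 0.98 ± 0.15 on the log2 scale (limma adjusted p 0.0074), where 0.777% of all rows passed. It fell by 1.15 ± 0.22 in OO against OC (limma adjusted p 0.043), where 0.518% of all rows passed. The latter call was lost in 10 of the 12 fits that leave out 1 library, with adjusted p up to 0.26 without OC replicate 3. CC had 1747 ± 99.8 CPM of it, CO 1012 ± 279 CPM, OC 2340 ± 524 CPM and OO 1056 ± 236 CPM (SD over 3 libraries). The other 15 did not pass in either contrast and none of the 16 passed in the remaining 6, and the list's median change with the son's diet was -0.08, against -0.02 for all rows. Over the 8 contrasts 20 of 128 values of the list had an unadjusted p under 0.05, beside the 9.33% of all rows.

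miR-182-5p was also the miRNA whose profile over the 12 libraries was most like that of miR-122-3p, with Pearson's r of 0.64 on log2(CPM + 1) among 260 other rows with a mean of at least 10 CPM. The next 3 were the neighbours on chromosome 17 whose sequences are given above: miR-99b-5p (0.63), let-7e-5p (0.62) and miR-125a-5p (0.61). Then came miR-181a-1-3p (0.52). Without CO replicate 3 these values were 0.52 to 0.70. miR-99b-5p had 637 ± 69.3 CPM, let-7e-5p 333 ± 76.9 CPM and miR-125a-5p 2172 ± 410 CPM (SD, 12 libraries). Being made side by side, the 3 are not separate instances of likeness: their r with each other was 0.59 to 0.90.

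**Figure D5:**
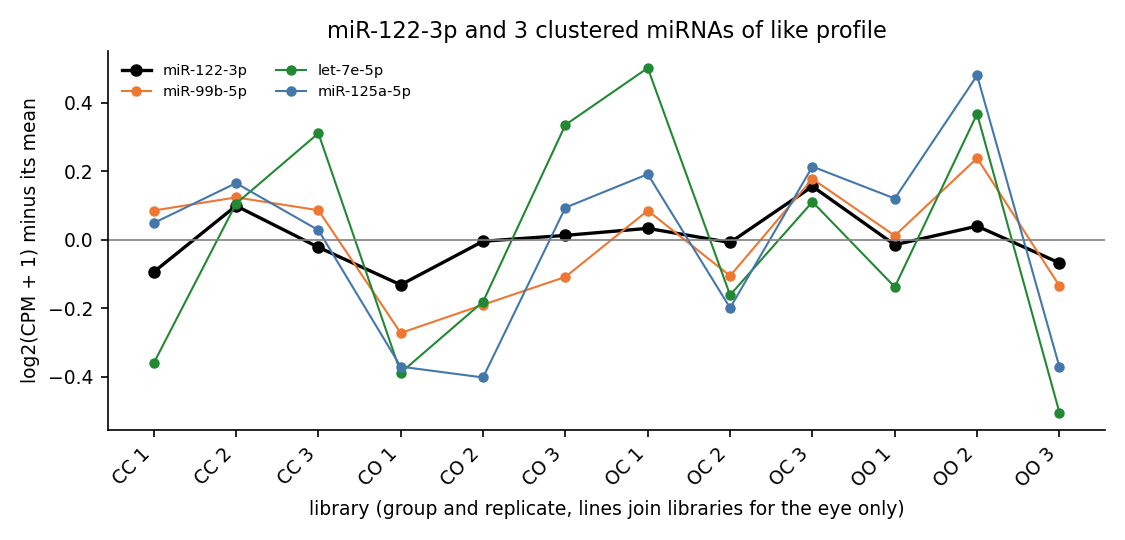
log2(CPM + 1) minus its mean over 12 libraries, for miR-122-3p and the clustered miR-99b-5p, let-7e-5p and miR-125a-5p, by library. Lines join libraries for the eye only. miR-122-3p varies less than the others, and all 4 are below their mean in CO replicate 1 and above it in OC replicate 3.

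The profile of miR-122-5p was most like those of miR-30c-2-3p (r = 0.70), miR-10a-5p (0.70), miR-194-2-3p (0.68), miR-148a-5p (0.66) and miR-100-5p (0.64). Their places at the top rested on CO replicate 3: without it r was 0.49, 0.47, 0.63, 0.25 and 0.56. In that order they were then 36th, 39th, 17th, 75th and 26th of 260 rows. miR-194-2-3p and miR-148a-5p, with means of 53.8 and 558 CPM, belong to the hepatocyte-enriched list. The member of that list with the highest CPM, miR-192-5p, did not share the profile: its r with miR-122-5p was 0.18, or -0.78 without CO replicate 3. The median row had r = -0.28 with miR-122-5p, and the most opposed rows, singled out after their values were seen, were miR-106b-5p (-0.93), miR-210-3p (-0.91), miR-186-5p (-0.89), miR-223-3p (-0.86) and miR-374b-5p (-0.85), whose row has the same values as that of miR-374c-5p. Without CO replicate 3 these lay between -0.89 and -0.73. miR-223-3p is a myeloid miRNA and miR-210-3p a hypoxia-induced one. The leukocyte list, which holds miR-223-3p, did not move in 1 direction: in OO against CC 4 of its 7 measured members had a positive log2 change and 3 a negative one. All these values of r describe likeness over libraries that share 1 scaling, and no test was made of them.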

How the data were processed

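Small RNA of 12 livers was sequenced in 4 diet groups. RNA came from a miRNeasy kit and went into TruSeq small RNA libraries, per the labels' protocols. The submitters' processing notes list Bowtie 1.2.3. CPM values of 386 mature miRNAs were deposited in 1 table, with build, miRNA reference and multi-mapping rule not given in the sources used here. In every library 100% of values were whole multiples of 1 step (tolerance 0.001 reads), and depth is the CPM total divided by that step. Columns summed to 0.866% to 1.17% above that total, so that a step is taken, but not known, to be 1 read; depths, read numbers and counting errors rest on this. Table columns were matched to samples by the column number in the sample descriptions. Replicates are numbered in accession order and pair nothing.

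All rows were fitted with limma 3.58.1 (R 4.3.3) on log2(CPM + 1), with trend for the variance, a mean for each group and 8 two-sided contrasts, Benjamini-Hochberg within each contrast over all 386 rows, threshold 0.05. The fit was tested on simulated data. A fold on this scale understates the change of low rows. Ratios and relations were tested in Python 3.11.15 (numpy 2.4.6, pandas 2.3.3, scipy 1.17.1, figures with matplotlib 3.10.9) with exact permutation tests, or 100000 resamples with 10 or more libraries. Tried as alternatives were other pseudocounts, scalings and filters, a depth covariate, fits of 2 groups and leaving out each library. Counting errors cover counting only.

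miRNAs were named by rule: both arms, the hepatocyte-enriched list, the 2 rows above and below each arm in level, the 5 rows of mean 10 CPM or more most like each arm in profile, the 2 hairpins on either side in arm ratio, and list members that passed. The members and lists were chosen with earlier results of these data known.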

Additional observations from a re-analysis of the deposited data

Results flagged for a closer look

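In 20 groups of 6 libraries examined for a value far from the rest, 2 stood out, and both came from CO replicate 3 among the 6 obesogenic-fed sons. Its miR-122-5p level of 28851 CPM was next to 22499 CPM, a gap of 0.717 of the whole range, above Dixon's 95% critical value of 0.625. Its ratio of 5p to 3p arm of 14.7 was next to 11.8, a gap of 0.641 of the range. Chance alone marks about 1 in 20 such groups, and both values hold the same miR-122-5p reads, so they are not separate. The library was also the shallowest, at 5.45 M reads, and had the lowest endothelial sum; the part of either in the high value was not tested.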

How the results depend on the processing

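Neither arm passed in any of 314 refitted log2 changes, and 293 kept their direction. The other 21, of which 16 were of miR-122-3p, changed sign. With median-of-ratios and TMM factors in turn, the changes were -0.026 and -0.044 for miR-122-3p by maternal diet, 0.036 and 0.045 for miR-122-5p and 0.048 and 0.057 for miR-122-3p in CO against CC, and -0.11 and -0.13 for miR-122-3p in OO against CO. With depth as a covariate, miR-122-5p gave 0.10 in OC against CC and miR-122-3p 0.013 in OO against CC, which was 0.0054 when scaled without the top 3 rows. With its sign kept, miR-122-5p in OO against CO was -0.34 with TMM factors and -0.12 with depth as a covariate.

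Leaving out each library in turn gave -0.18 to 0.048 for miR-122-5p and -0.080 to 0.017 for miR-122-3p in CO against CC, and -0.083 to 0.017 for miR-122-5p in OC against CC. For miR-122-3p it gave -0.018 to 0.054 in OO against CO, -0.053 to 0.044 in OO against CC and -0.091 to 0.0085 in the interaction. The arm ratio by maternal diet ranged from -0.20 to -0.12 and the ratio to the hepatocyte-enriched list by the son's diet from -0.27 to -0.18, and each passed once, without OC replicate 1 and without CO replicate 3 respectively.

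The number of miRNAs past the test depended on the setting. The son's diet gave 3, and 8 with median-of-ratios or TMM factors. CO against CC gave 3, then 10 with depth as covariate and 1 from the 2 groups alone or scaled without the top 3 rows. OO against CC gave 1, and 2 with either set of factors, the depth covariate or rows of mean 10 CPM or more. OO against OC gave 2, and 1 with the depth covariate or the 2 groups alone. Maternal diet and the interaction gave 0, and 1 with the depth covariate. At an unadjusted limma p under 0.05 the contrasts without calls had 27 (maternal diet), 4 (OC against CC), 47 (OO against CO) and 15 rows (interaction). Without single libraries the counts were 3 to 5 for the son's diet, 1 to 4 for CO against CC, 1 to 3 for OO against CC, 0 to 2 for OO against OC and 0 to 2 for OO against CO.

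Pearson's r of miR-122-5p with depth was 0.15 without the 2 farthest libraries and 0.43 among sons of obesogenic mothers; with miR-192-5p it was -0.76 and -0.74, and -0.78 without CO replicate 3. The arm ratio with depth gave 0.16 among sons of obesogenic mothers. The cause of these differences was not tested. The planned count tests on reads (edgeR, limma-voom) were not run, because columns that sum above the CPM total could not be taken with certainty as recovered reads. No paired analysis was possible because the replicate numbers are in accession order and pair nothing.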
